A study of Mus musculus with 10 samples.

Results

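The genes for the proteins of the cytosolic ribosome were followed in RNA from the mouse auditory cortex. They were chosen by symbol: an Rpl, Rps or Rplp name with its number and a short paralogue suffix, or Rpsa, with symbols of named pseudogenes left out and a mean of at least 1 CPM (a gene's count scaled to a fixed library total) over all libraries. Of 34745 genes in the deposited table, 85 had such a name and 81 passed that level: 46 of the large subunit, 32 of the small subunit and the 3 stalk genes Rplp0, Rplp1 and Rplp2. Rps29 lay just outside at 0.954 CPM, and Rpl3l at 0.239, Rpl39l at 0.0749 and Rpl10l at 0.0 CPM were left out as well. Rps27 lay just inside at 1.32 CPM, followed by Rps23 at 1.59 and Rpl23a at 2.07 CPM. All 81 passed the filter on low counts of the test, so none is missing from the counts given below.

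All mice were male C57BL/6. The 4 groups were wild type (WT) at 1 month with 3 libraries, mice heterozygous for Ash1l (het) at 1 month with 3 libraries, WT at 1 year with 2 libraries and het at 1 year with 2 libraries; the WT mice are called littermates of matched age. Ash1l encodes a histone methyltransferase, and the labels give neither the nature of the allele nor a Cre driver. RNA came from the whole cortical region, so every value is an average over neurons, glia and vessels, and fewer cells of a type and less RNA per cell cannot be told apart.

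A ribosome has a large subunit, which joins amino acids, and a small subunit, which reads the messenger RNA. Each subunit holds ribosomal RNA and many small basic proteins, and the stalk on the large subunit recruits elongation factors. The messenger RNAs of these proteins begin with a C followed by a run of pyrimidines, the TOP motif, through which LARP1 and mTORC1 adjust their translation and stability together. In neurons, ribosomal protein messenger RNAs also occur in axons and dendrites. In mammalian genomes these genes have left many processed pseudogenes, copies made from spliced messenger RNA, and reads that match both a gene and a copy have no unique place.

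The windows around the annotated start sites show how the members' first bases differ. RefSeq promoters on GRCm38.p6 were matched by symbol for 61 of the 81 members, with 72 start sites. Each line gives 40 bases on the gene's strand, from 16 bases before the start to the first 24 bases from it, and capitals mark the longest unbroken run of C and T. They are shown for 2 of the members highest in FPKM (Rpl13a and Rpl4). Also shown are the 3 with the largest age difference in het mice among those called (Rpl12, Rpl10, Rpl37). The last is the member that went the other way (Rpl28).
Rpl13a, chr7:45128722-45128761, minus strand: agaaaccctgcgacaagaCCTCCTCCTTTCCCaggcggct
Rpl4, chr9:64173371-64173410, plus strand: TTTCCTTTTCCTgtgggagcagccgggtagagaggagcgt
Rpl12, chr2:32961696-32961735, plus strand: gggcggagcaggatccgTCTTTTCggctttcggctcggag
Rpl10, chrX:74270800-74270839, plus strand: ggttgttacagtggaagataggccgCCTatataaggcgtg
Rpl37, chr15:5116597-5116636, plus strand: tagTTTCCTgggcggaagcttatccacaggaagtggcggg
Rpl28, chr7:4792949-4792988, plus strand: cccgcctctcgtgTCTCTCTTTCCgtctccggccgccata
The run of Rpl28 covers its annotated start, that of Rpl13a begins within 5 bases of it, and the longest run of Rpl10 has 3 bases. A run of 8 or more pyrimidines lay in the window at 43.1% of the members' start sites, against 15.6% of all 32851 start sites in the table. A C at the start with at least 4 more pyrimidines was found at 18.1% against 2.51%, and the same beginning within 5 bases of the start at 43.1% against 18.4%. In the 300 bases from 250 before to 50 after the start, searched on both strands, the GABPA letters CCGGAAG occurred at 36.1% of the members' sites against 8.86% of all, the YY1 letters AAGATGG at 16.7% against 6.34%, the SP1 letters GGGCGG at 62.5% against 35.7% and the TATA letters TATAAA at 9.72% against 13.6%. These are matches of letters to annotated starts and not measured start sites or binding.

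Copies of these genes held many counts and share sequence with them, which limits what a member's level means; the origin of the reads was not traced. Of the 50-base stretches in a member's principal transcript, a median of 48.5% occurred in no other gene's transcripts, over the 80 members with such a transcript. For 77 mitochondrial ribosomal protein genes, the nuclear genes of the other ribosome of the cell, the median was 97.0%. In 41 of the 80 members fewer than 50% were unique, against 5 of the 77, and 79 of the 80 shared stretches with at least 1 annotated pseudogene. How the authors counted reads with several matches is not stated in the sources.

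In the count table, 28 members had at least 1 copy elsewhere in the genome that shared 20% or more of the member's 50-base stretches, 38 copies in all. Over the 10 libraries the copies held 1559 CPM and the 81 members 6782 CPM. In 11 members the copies held more counts than the gene. Rpl9, a large-subunit protein, had 2.38 CPM against 126 for Rpl9-ps6. Rps27, a zinc-finger protein of the small subunit, had 1.32 CPM against 61.4 for the retrocopy Rps27rt, and 98.65% of its stretches recur in that copy. Rpl23a had 2.07 CPM against 98.8 for Rpl23a-ps3, and Rpl12 had 10.6 CPM against 191 for Gm10275. Rpl5, which carries 5S ribosomal RNA and joins with Rpl11 in binding MDM2, had 41.4 CPM against 253 for Gm15500. The low count of such a gene cannot be read as the abundance of its messenger RNA. The plot of genes and copies shows 10 of the 11 at its top.

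**Figure D1:**
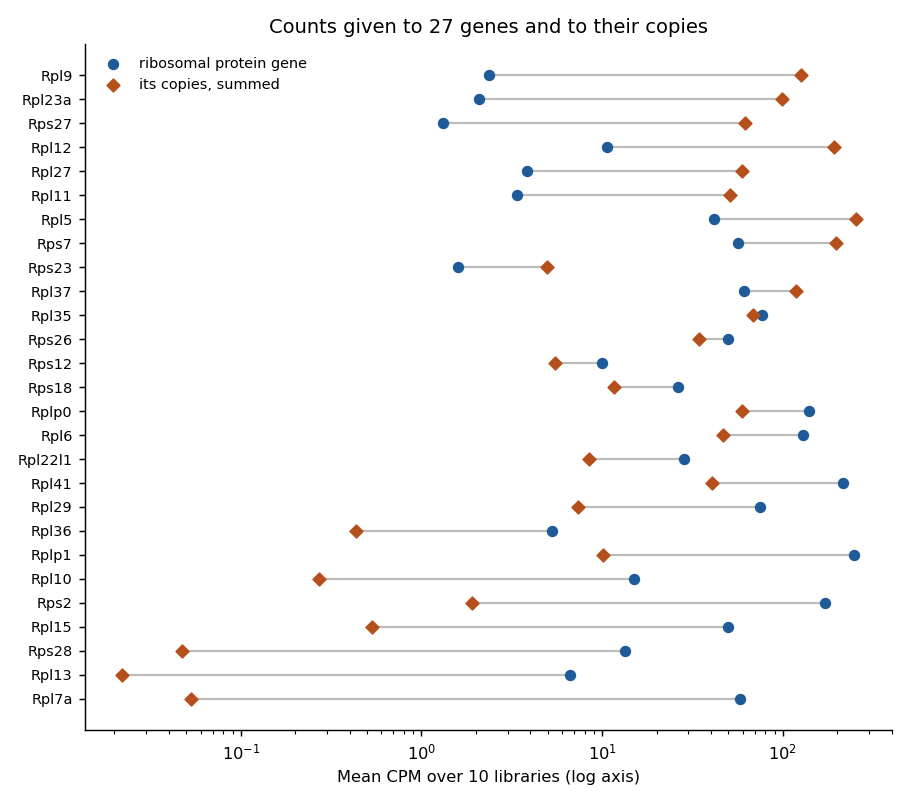
Mean CPM (log axis) of 27 of the 28 ribosomal protein genes that have a copy (circles) and of the summed copies of each elsewhere in the genome (diamonds), over 10 libraries, ordered by the copies' share. In the 10 genes at the top, from Rpl9 at 2.38 against 126 CPM to Rpl37 at 60.6 against 118 CPM, the copies hold more counts than the gene.

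With that limit, levels per length ranged widely. By the deposited FPKM, counts scaled for length and library total, among the highest were Rplp1 at 502 ± 80.7, Rps15 at 382 ± 84.0, Rpl13a at 360 ± 110, Rpl4 at 310 ± 39.2 and Rpl8 at 258 ± 32.4 (SD, n = 10 libraries). Rplp1 is an acidic protein of the stalk, and Rpl4 lines the exit tunnel. The lowest were Rpl9 at 0.218, Rps13 at 0.251, Rps27 at 0.458, Rpl11 at 0.740, Rpl23a at 1.48 and Rpl12 at 1.48 FPKM. Of these 6, all but Rps13 have a copy with more counts. Apart from the acidic stalk proteins, each protein is present in a single copy in a ribosome. The ratio of highest to lowest FPKM was 2303, with Rplp1, one of these stalk proteins, as the highest. Without Rplp1 the FPKM ran from 0.218 for Rpl9 to 382 for Rps15. The gene lengths that the deposited FPKM implies were within 10% of the principal transcript's length for 14 members only. On CPM per kilobase of the principal transcript the ratio was 378, Rps15 was highest at 639, and the ranks over 80 members had a Spearman rho of 0.888 with those by FPKM. The 5 members with most counts held 25.8% of the members' counts, and the 10 with most held 42.4%.

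The share of all gene counts that fell on the 81 members was below 1% in every library, and it was highest in the 1-year groups. It was 0.487, 0.717 and 0.520% in the 3 WT libraries at 1 month, 0.682, 0.570 and 0.613% in het at 1 month, 0.713 and 0.814% in WT at 1 year, and 0.812 and 0.854% in het at 1 year. Replicate 2 of WT at 1 month stood apart from its group and lay above the lower of the WT libraries at 1 year. The group means were 0.575 ± 0.125% for WT at 1 month (SD, n = 3), 0.622 ± 0.0566% for het at 1 month (n = 3), 0.764 ± 0.0712% for WT at 1 year (n = 2) and 0.833 ± 0.0291% for het at 1 year (n = 2). Groups of the same age overlapped. Large-subunit counts without the stalk were 1.08 to 1.18 times small-subunit counts at 1 month and 1.03 to 1.08 times at 1 year. No 1-year library was above a 1-month library in this ratio, by a narrow margin. The nearest were WT 1 year replicate 2 at 1.0791 and het 1 month replicate 1 at 1.0805.

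Other properties of the libraries moved with this share, and their part in the results was not tested. Total gene counts were 13715395 to 17252964 at 1 month and 11959161 to 13721959 at 1 year, and WT replicate 2 had the lowest total at 1 month. The share of counts from the mitochondrial genome was 9.42 to 13.0% in WT and 10.2 to 12.9% in het at 1 month, and 12.05 to 12.8% in WT and 12.3 to 13.7% in het at 1 year, and WT replicate 2 was the highest at 1 month there too. Ash1l itself was at 192 to 225 CPM in WT and 131 to 153 CPM in het at 1 month, and at 165 to 183 CPM in WT and 156 to 162 CPM in het at 1 year. The het libraries were lower at both ages without overlap, with log2 differences of -0.56 ± 0.10 (SE; edgeR adjusted p = 0.279) and -0.13 ± 0.12 (adjusted p = 0.908), neither past the threshold. Of all genes, 3.33% were separated downwards in het at 1 month and 20.8% at 1 year. The nearest libraries at 1 year were at 162 CPM in het and 165 CPM in WT. All 10 neuron markers were detected in these cortex samples.

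**Figure D2:**
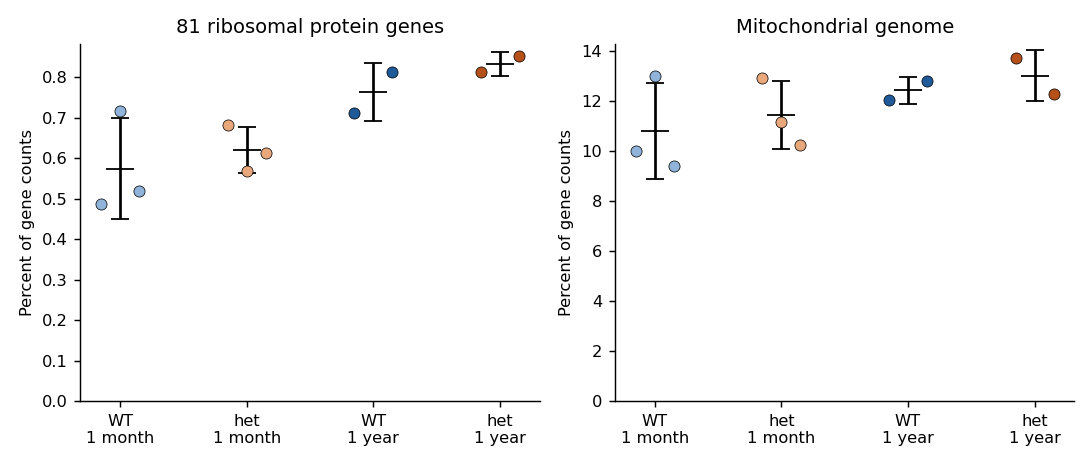
Percent of all gene counts on the 81 ribosomal protein genes (left) and on the mitochondrial genome (right), by group, with 1 point per library and bars for the mean ± SD. The 4 libraries of 1 year lie between 0.713 and 0.854% and those of 1 month between 0.487 and 0.717% for the ribosomal genes, where WT 1 month replicate 2 is the highest of its age.

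The members moved together from library to library. On log2 CPM relative to each gene's own mean, the median member was at -0.43, 0.14 and -0.33 in WT at 1 month, 0.03, -0.24 and -0.14 in het at 1 month, 0.09 and 0.24 in WT at 1 year, and 0.30 and 0.31 in het at 1 year. In WT replicates 1 and 3 at 1 month only 4 and 2 of the 81 members were above their own mean, and in replicate 2 it was 63. At 1 year 60 to 77 of 81 were above it. The plot of deviations by library shows that the boxes of WT replicates 1 and 3 lie wholly below 0.

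**Figure D3:**
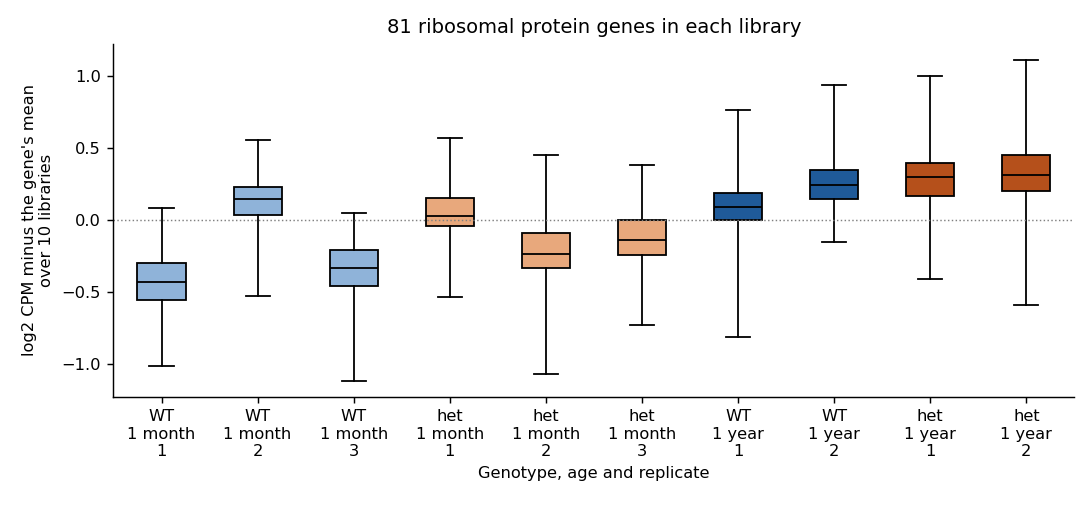
Log2 CPM of each of the 81 ribosomal protein genes minus its mean over 10 libraries, as a box per library (line, median; box, quartiles; whiskers, lowest and highest gene). The medians run from -0.43 in WT 1 month replicate 1 to 0.31 in het 1 year replicate 2, and WT 1 month replicate 2 lies at 0.14, above WT 1 year replicate 1 at 0.09.

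Each member's profile was compared with the mean profile of the other members over the 10 libraries. The median Pearson r was 0.917, and 62 of 81 members had an r of at least 0.8, as did 6.05% of the 15942 other genes tested. These values are descriptions, since libraries share age, depth and scaling. The members most like the shared profile were Rps3, a small-subunit protein near the entry of the messenger RNA, at 0.99, Rpl13a, known from the GAIT complex that silences translation, at 0.99, Rpl30 at 0.98, Rps15 at 0.97 and Rps14 at 0.97. The genes outside the list most like it were Gm9493, a processed pseudogene, at 0.99, Pfdn5, a subunit of the prefoldin chaperone, at 0.99, Gm15500, the copy of Rpl5, at 0.99, and Rpl23a-ps3 and Gm2000 at 0.98.

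In 11 members r was under 0.5: Rpl28 at -0.61, Rpl22 at -0.01, Rpl7l1 at 0.09, Rpl36al at 0.13, Rpl29 at 0.14, Rps4l at 0.16, Rpl3 at 0.18, Rpl11 at 0.29, Rps28 at 0.305, Rpl27 at 0.365 and Rpl15 at 0.39. Of these 11, Rpl7l1 and Rpl36al are paralogues of Rpl7 and Rpl36a, and Rps4l is annotated as a transcribed processed pseudogene. An expressed gene of at least 1 CPM overlapped 5 of the 11 (Rpl28, Rpl3, Rpl15, Rps28 and Rps4l), all on the opposite strand, and 10 of the other 70. Among the 10 were Rpl12, Rpl5, Rpl31 and Rpl32. Their neighbours on the opposite strand, Lrsam1, Fam69a, Tbc1d8 and Cand2, had 26.7, 21.6, 16.3 and 2.84 CPM in turn. Ube2s, overlapping Rpl28, had 12.9 CPM against 9.18 for Rpl28, and Syngr1, a synaptic vesicle protein, had 508 CPM against 135 for Rpl3. The strand setting of the counting is not stated, and without it the reads of these pairs cannot be told apart.

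Rpl22 and Rpl3 differed between the libraries of 1 group more than between groups. Rpl22, which also binds viral and cellular RNAs outside the ribosome, had 60.9, 65.7 and 56.6 CPM in WT and 66.1, 61.2 and 64.9 CPM in het at 1 month, but 33.6 and 72.2 CPM in WT and 80.0 and 44.8 CPM in het at 1 year. Rpl3, next to the peptidyl transferase centre, had 124, 163 and 130 CPM in WT and 147, 129 and 133 CPM in het at 1 month, and 90.2 and 168 CPM in WT and 100.4 and 162 CPM in het at 1 year. At 1 year each of them had 1 low and 1 high library in both genotypes.

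The comparison of 1 year with 1 month asks how these genes differ with age in each genotype. The contrasts in WT and het use different libraries. In WT 73 of 81 members were higher at 1 year (50.5% of all genes) with a median log2 fold change of 0.36, and in het 72 of 81 (50.6%) with a median of 0.41, where the median of all 16023 genes tested was 0.01 in each. In both genotypes 71 members were higher and 7 lower, against 36.7% and 35.6% of all genes. The small subunit had medians of 0.42 in WT and 0.46 in het with 31 and 30 of 32 members higher. For the large subunit these were 0.34 and 0.39 with 39 of 46 higher in each, and for the stalk 0.14 and 0.16 with 3 of 3. The 1-year libraries were above the 1-month libraries without overlap in 32 members in WT and below in 0 (18.1% and 18.4% of all genes), and above in 62 and below in 2 members in het (21.7% and 20.8%). In all 4 libraries of 1 year, 25 members were above all 6 libraries of 1 month (5.02% of all genes were), among them Rpl13a, Rps14 and Rps15, and no member was below (5.48%). Without WT 1 month replicate 2 it was 40 members (6.25%). Leaving out a 1-month library can only keep or raise this count, and no other library was left out for it. Members with at least 50% unique stretches had medians of 0.36 in WT and 0.38 in het, and the others 0.34 and 0.47.

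Few single members passed the test. A gene is called here when its adjusted p, by edgeR's quasi-likelihood test with Benjamini-Hochberg adjustment over all 16023 genes, is under 0.05. In het 11 members rose and 1 fell with age (1.84% and 1.6% of all genes did). In WT 1 rose and 0 fell (0.0562% and 0.0374% of all genes). At an unadjusted p under 0.05 there were 37 members in het and 33 in WT, against 25.0% and 15.3% of all genes. The het calls depended on single libraries: 0 members were called when replicate 2 or 3 of het at 1 month, or either het library of 1 year, was left out. The count was 6 when replicate 1 of WT at 1 month was left out, 22 when replicate 1 of het at 1 month was, and 23 when replicate 2 of WT at 1 month was. The WT count became 16 when replicate 2 of WT at 1 month was left out and 6 when replicate 1 of het at 1 month was. It stayed at 1 with replicate 2 of het at 1 month left out, and it was 0 with any of the other 7 libraries left out.

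Rpl12, part of the base of the stalk (chromosome 2, 32961559 to 32965345, plus strand, GRCm38), differed most. It had 4.50, 7.78 and 5.52 CPM in WT and 7.98, 5.09 and 6.11 CPM in het at 1 month, and 15.6 and 17.6 CPM in WT and 15.4 and 19.9 CPM in het at 1 year. The lowest 1-year library was above the highest 1-month library. The log2 fold change was 1.49 ± 0.24 in WT (SE; adjusted p = 0.0422) and 1.47 ± 0.24 in het (adjusted p = 0.0195). Its copy Gm10275 had far more counts, with 133, 206 and 145 CPM in WT and 207, 153 and 161 CPM in het at 1 month, and 212 and 220 CPM in WT and 220 and 253 CPM in het at 1 year. The fold change of Gm10275 was 0.42 ± 0.18 (adjusted p = 0.296) in WT and 0.45 ± 0.18 (adjusted p = 0.155) in het. With gene and copy summed, the change was 0.48 (adjusted p = 0.263) and 0.50 (adjusted p = 0.124), so the sum was not called in either genotype. Lrsam1 overlaps Rpl12 on the opposite strand at 26.7 CPM and changed with age by -0.20 in WT and 0.24 in het.

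Rpl37, a zinc-binding large-subunit protein (chromosome 15, 5116613 to 5119140, plus strand), had 33.5, 54.5 and 39.5 CPM in WT and 47.0, 38.7 and 48.7 CPM in het at 1 month, and 78.8 and 86.7 CPM in WT and 88.4 and 86.9 CPM in het at 1 year. The ages did not overlap in either genotype. The log2 fold change was 0.97 ± 0.17 (adjusted p = 0.0264) in het and 0.96 ± 0.17 (adjusted p = 0.0714) in WT, where it was not called. Its retrocopy Rpl37rt changed by 0.16 in het (adjusted p = 0.596) and 0.08 in WT (adjusted p = 0.848), and the sum by 0.44 (adjusted p = 0.136) and 0.38 (adjusted p = 0.307). Rpl5 was alike in this respect. For Rpl5 the log2 fold change in het was 0.69 (adjusted p = 0.0281) against 0.32 for Gm15500 and 0.37 for the sum (adjusted p = 0.149).

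The reverse held for Rpl11, the partner of Rpl5 in binding 5S ribosomal RNA. Rpl11 had 2.24 to 4.26 CPM over all libraries and a log2 fold change in het of 0.18 ± 0.29 (adjusted p = 0.732), while its pseudogene Gm10036 had 33.0 to 40.6 CPM in het at 1 month and 72.1 and 79.3 CPM at 1 year. Gm10036 rose by 1.01 ± 0.17 (adjusted p = 0.0195), and the sum by 0.96 ± 0.16 (adjusted p = 0.0207). For Rpl41, a very short and basic protein, the gene changed by 0.15 in het and 0.29 in WT (adjusted p = 0.694 and 0.520). The related non-coding RNA Gm10076 rose from 11.8, 24.6 and 18.6 CPM to 59.0 and 69.9 CPM in WT and from 23.8, 18.5 and 25.4 CPM to 73.5 and 75.8 CPM in het. Its log2 fold changes were 1.82 ± 0.24 (adjusted p = 0.0341) and 1.72 ± 0.24 (adjusted p = 0.0171), with adjusted p = 0.280 and 0.269 for the sum of Rpl41 and Gm10076. Of 26 copies tested, 22 were higher with age in WT and 22 in het, with medians of 0.36 and 0.42, close to those of the members. With every copy summed into its member, the members' medians were 0.35 and 0.41, 9 members were called in het and 0 in WT.

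The other 7 members that rose in het had no copy in the table by this criterion or, for Rpl10, copies with 0.271 CPM. Rpl10, which joins the large subunit late in its maturation (chromosome X, 74270812 to 74273135, plus strand), had 10.2, 14.7 and 9.46 CPM in WT and 11.5, 10.6 and 10.9 CPM in het at 1 month, and 17.2 and 19.9 CPM in WT and 22.2 and 23.0 CPM in het at 1 year. The 4 libraries of 1 year were above all 6 of 1 month. The log2 fold change was 1.04 ± 0.18 in het (adjusted p = 0.0227) and 0.70 ± 0.18 in WT (adjusted p = 0.147), and 14.6% of its stretches were unique. Rps16, whose tail reaches the P-site transfer RNA (chromosome 7, 28350652 to 28352696, plus strand), had 51.4, 50.9 and 58.4 CPM in het at 1 month and 85.9 and 87.6 CPM in het at 1 year, with 41.6 to 59.2 CPM and 62.9 to 74.2 CPM in WT. The fold change was 0.70 ± 0.15 in het (adjusted p = 0.0351). Rpl31 rose by 0.76 ± 0.15, Rpl32 by 0.68 ± 0.13, Rpl37a by 0.88 ± 0.22, Rps21 by 0.62 ± 0.15 and Rpl10a by 0.53 ± 0.12 in het, with adjusted p from 0.0300 to 0.0485. Only 11.9% of the stretches of Rpl10a and 30.0% of those of Rpl31 were unique. For Rps16, Rpl37a, Rpl32 and Rps21 it was 58.4 to 73.6%. In each of these 7 genes the WT libraries of 1 year were also above the WT mean of 1 month, as the panels by gene show. The share of all genes for which this holds was not counted. For Rps21 the WT ages overlapped, with 87.2 CPM in replicate 2 at 1 month and 85.1 CPM in replicate 1 at 1 year.

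Rpl28 was the member called in the other direction. Rpl28 lies in the large subunit (chromosome 7, 4792874 to 4795066, plus strand). It had 9.55, 9.80 and 8.70 CPM in WT and 10.1, 12.4 and 11.8 CPM in het at 1 month, and 8.12 and 9.14 CPM in WT and 6.74 and 5.93 CPM in het at 1 year. The het libraries were the highest at 1 month and the lowest at 1 year, without overlap with WT of the same age. Of all genes, 3.51% were separated upwards at 1 month and 20.8% downwards at 1 year. With age Rpl28 fell by 0.85 ± 0.17 on the log2 scale in het (adjusted p = 0.0337), and the change in WT was -0.11 ± 0.17 (adjusted p = 0.780). The difference between these changes was -0.73 ± 0.24, with an adjusted p of 1.0. Ube2s, on the opposite strand, changed by 0.02 in het and 0.20 in WT. Rpl29, which binds heparin at the cell surface as well, was the other member whose het libraries did not overlap downwards, from 78.5 to 90.3 CPM at 1 month to 70.0 and 73.1 CPM at 1 year, and it was not called (log2 fold change -0.22 ± 0.14, adjusted p = 0.348).

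**Figure D4:**
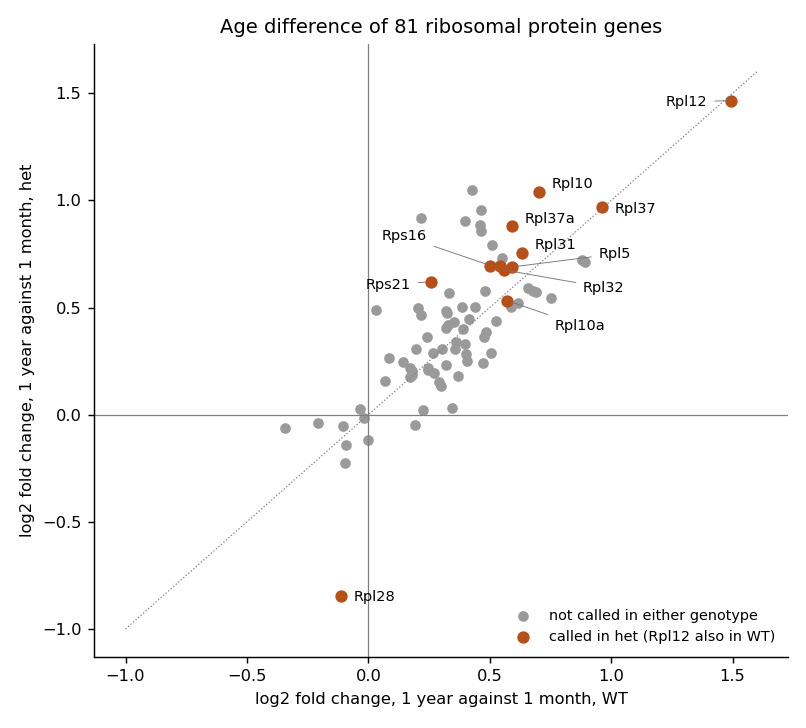
Log2 fold change of 1 year against 1 month in WT (horizontal) and het (vertical) for the 81 ribosomal protein genes, with the 12 called in het coloured (11 of them named) and a dotted line of equal change. Most points lie above 0 on both axes (71 of 81), Rpl12 is at 1.49 and 1.47, and Rpl28 is at -0.11 and -0.85.

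**Figure D5:**
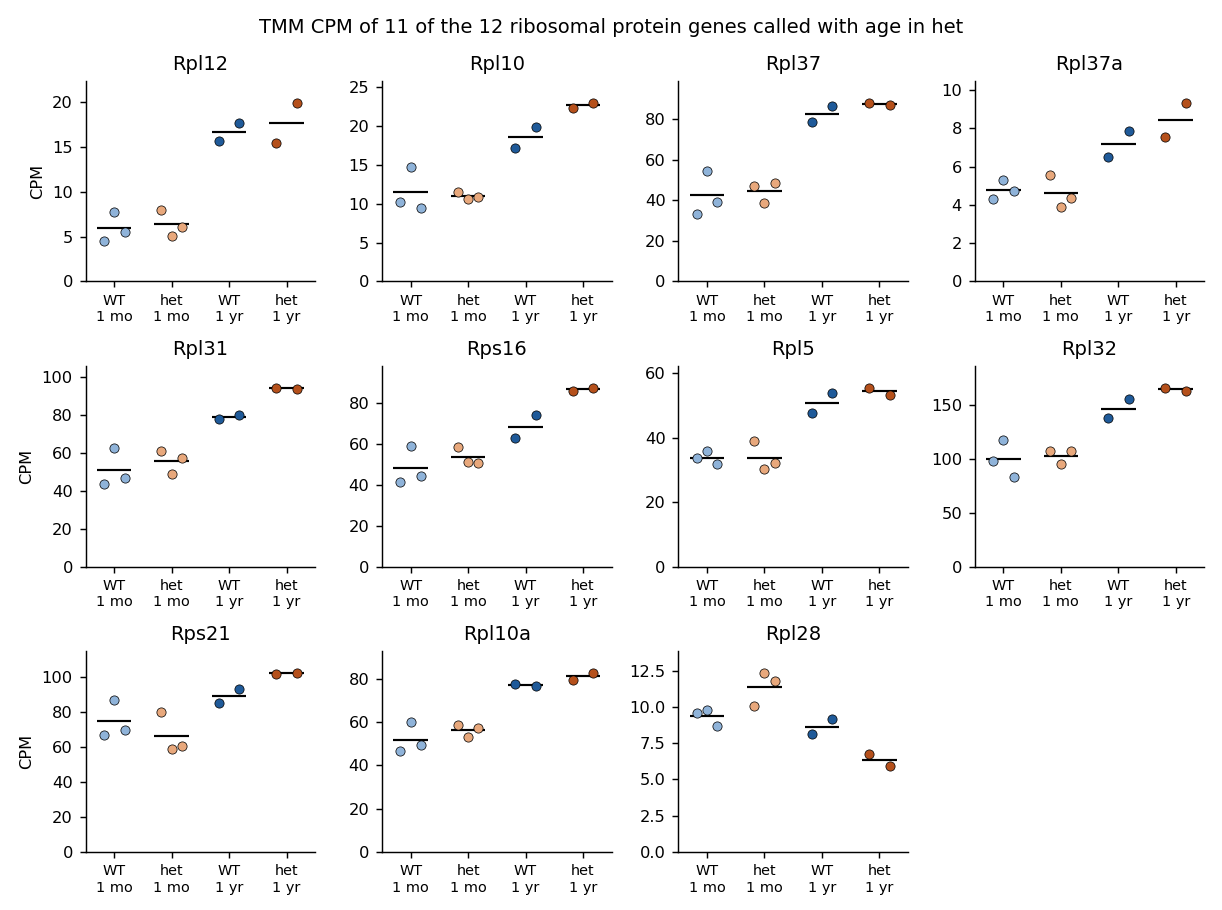
CPM scaled by TMM of 11 of the 12 members called with age in het, with 1 point per library, a line for each group's mean and axes from 0. Rpl12 goes from 4.50 to 7.98 CPM at 1 month to 15.4 to 19.9 CPM at 1 year, and Rpl28 is lowest in het at 1 year at 5.93 and 6.74 CPM.

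No stalk gene and none of the paralogues in this paragraph was called with age. Rplp0 had log2 fold changes with age of 0.30 ± 0.12 in WT and 0.13 ± 0.12 in het, Rplp1 of 0.14 ± 0.18 and 0.25 ± 0.18, and Rplp2 of 0.07 ± 0.14 and 0.16 ± 0.14, with adjusted p from 0.273 to 0.849. Rpl22l1, the paralogue that can take the place of Rpl22, had 20.4, 31.9 and 17.0 CPM in WT and 28.6, 20.1 and 18.8 CPM in het at 1 month, and 25.9 and 34.9 CPM in WT and 41.3 and 42.8 CPM in het at 1 year. The ages did not overlap in het, and Rpl22l1 was not called there (0.90 ± 0.26, adjusted p = 0.0760). Rps27l, the paralogue of Rps27, had 0.48 ± 0.19 in het and 0.32 ± 0.19 in WT (adjusted p = 0.153 and 0.445). The X-linked Rps4x had 0.17 ± 0.17 in each genotype. Rpl7l1 had -0.14 ± 0.14 in het against 0.36 ± 0.16 for Rpl7, and Rpl36al had -0.34 ± 0.17 in WT against 0.34 ± 0.28 for Rpl36a, none called.

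The comparison of het with WT asks whether the Ash1l allele changes these genes, and 0 members were called at either age. At 1 month 0.0% of all genes were called. The members called were 0 of 81, 62 were higher in het (52.0% of all genes) and the median log2 difference was 0.105, with 1 member at an unadjusted p under 0.05 (3.0% of all genes). In 3 members the het libraries were all above the WT libraries and in 0 all below (3.51% and 3.33% of all genes). DESeq2 also called 0. The median was 0.01 without WT replicate 1 and 0.29 without WT replicate 2, so its size rests on these libraries. At 1 year 0 of 81 were called (0.0125% of all genes), 70 were higher (51.1%) with a median of 0.13, and 1 member had an unadjusted p under 0.05 (5.68%). There 37 members were separated upwards and 2 downwards, Rpl28 and Rpl7a, against 21.6% and 20.8% of all genes, with 2 libraries in each group. Over both ages 0 were called (0.00624%), 77 were higher (51.7%) with a median of 0.11, and 2 had an unadjusted p under 0.05 (4.98%).

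The 3 members separated at 1 month were Rpl36a, Rps12 and Rpl28. As a share, 3 of 81 is close to the 3.51% of all genes separated upwards. Rpl36a, an X-linked member near the exit site, had 3.31, 5.83 and 5.52 CPM in WT and 9.51, 6.92 and 6.73 CPM in het at 1 month. The log2 difference was 0.66 ± 0.25 (edgeR adjusted p = 1.0), the largest of the 81. At 1 year the 6.66 and 5.72 CPM of WT overlapped the 6.26 and 9.51 CPM of het. Rps12, a small-subunit protein known from cell competition in flies, had 4.62, 7.85 and 7.46 CPM in WT and 9.16, 8.69 and 8.47 CPM in het, a difference of 0.40 ± 0.20 (adjusted p = 1.0). At 1 year the largest difference was that of Rps27 at 0.77 ± 0.48 (adjusted p = 0.863), from 1.32 and 1.29 CPM to 2.41 and 2.03 CPM, a gene with nearly all its stretches in a copy. Rps16 had 0.34 ± 0.16 at 1 year (adjusted p = 0.869).

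A difference between the genotypes in the change with age was not detectable. The interaction called 0 of 81 members (0.00624% of all genes), 47 were above 0 (49.1%) with a median of 0.02, and 1 member, Rpl28, had an unadjusted p under 0.05 (4.17%). The median standard error of a member's interaction was 0.27. The median ranged from -0.18 to 0.13 over the fits that each left out 1 library.

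Other genes of translation were described by lists of known roles. A list of some further TOP messenger RNAs and related genes, with Fau, Naca, Tpt1 and Btf3 among them, had 7 genes tested. It does not hold all TOP messenger RNAs, and elongation and initiation factors were listed apart. With age 7 of 7 were higher in WT and 6 of 7 in het, with medians of 0.42 and 0.34, and 2 rose in het. These were Naca, of the complex that guards nascent chains, by 0.59 ± 0.11 (adjusted p = 0.0258), and Tpt1, known as TCTP, by 0.76 ± 0.15 (adjusted p = 0.0316). The hosts of small nucleolar RNAs were higher in 9 of 9 in both genotypes, with medians of 0.42 in WT and 0.68 in het, and Gas5 rose in het by 0.77 ± 0.14 (adjusted p = 0.0254). Host genes of this kind can also begin with the TOP motif, and a part of the motif in these changes was not tested.

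The remaining lists had medians from -0.13 to 0.18. The 14 eIF3 subunits had 0.015 in WT and -0.07 in het with 0 called, and the 22 other initiation factors had -0.06 and -0.13, where Eif5b, which joins the subunits, fell by 0.41 ± 0.09 in het (adjusted p = 0.0414). The 8 elongation factors had 0.13 and 0.07 with 0 called, and Eef1g had 0.47 ± 0.11 in WT and 0.42 ± 0.11 in het (adjusted p = 0.129 and 0.0527). The 18 genes of mTORC1 and LARP1 control had 0.02 and -0.08 with 0 called. Larp1, which binds the TOP motif, had -0.26 ± 0.13 in WT and -0.40 ± 0.13 in het (adjusted p = 0.341 and 0.0828). The 48 biogenesis factors had -0.035 and 0.04, with the kinase Riok1 up by 0.55 ± 0.13 in het (adjusted p = 0.0462). The 14 rescue and quality control genes had -0.02 and 0.06, with Ankzf1 up by 0.63 ± 0.15 in het (adjusted p = 0.0479). The 77 mitochondrial ribosomal protein genes had 0.07 and 0.06, with Mrps10 up by 0.55 ± 0.12 in het (adjusted p = 0.0407). The 13 messenger RNAs of the mitochondrial genome had 0.16 and 0.18 with 0 called.

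Markers of cell types moved with age beside the ribosomal genes, and their part in the result was not tested. The summed CPM of 10 neuron markers was 10456 to 12071 at 1 month in WT, 10612 to 11803 in het, 9774 to 10194 at 1 year in WT and 8989 to 9751 in het, and 9 of 10 were lower with age in each genotype, 1 of them called in het. The 8 mural cell markers summed to 99.6 to 170 CPM at 1 month and 89.4 to 92.4 CPM at 1 year over both genotypes, with 8 of 8 lower and 0 called. The 6 markers of oligodendrocyte precursors were lower in 6 of 6 in each genotype, 1 called in each, with sums of 224 to 282 CPM at 1 month and 166 to 207 CPM at 1 year. The sums of 9 microglia markers overlapped between ages, at 381 to 485 CPM and 387 to 455 CPM, with medians of 0.20 in WT and -0.06 in het; 1 of the 9, Csf1r, was called lower in het (-0.52 ± 0.13, adjusted p = 0.0497) and 0 in WT. The 8 astrocyte markers had medians of 0.12 in WT and -0.05 in het with 1 lower call in het, the 8 oligodendrocyte markers -0.55 and -0.20, the 8 endothelial markers -0.49 and -0.18, the 8 meningeal markers -0.54 and -0.17, the 6 blood markers tested -0.39 and 0.23, and the 8 markers of other brain regions -0.28 and -0.25, with 0 called. The sums of 7 choroid plexus and ependyma markers were 6.49 to 14.3 CPM and 13.1 to 17.1 CPM, with Tmem212 at 0 in all libraries. Transcript length also varied: with offsets that remove each library's trend on gene length, the members' medians with age were 0.31 in WT and 0.34 in het, with 71 and 67 of 81 higher.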

How the data were processed

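Auditory cortex RNA was extracted with TRIzol and sequenced from a stranded library kit, per the labels' protocols. HISAT2, StringTie, edgeR, FastQC and CASAVA, and the build GRCm38, are listed in the submitters' processing notes, without settings. The deposited values are raw counts for each gene and, in a series table, the same counts beside the authors' FPKM. The total count was 11959161 to 17252964 per library, and a member's count in a library was 10 to 6856, which limits the precision of the low members.

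Tests used edgeR 4.0.16 (R 4.3.3) on the deposited counts: filterByExpr (minimum count 10, minimum total 15, leaving 16023 genes), TMM scaling, and a robust quasi-likelihood fit of 4 group means over all 10 libraries, two-sided, with Benjamini-Hochberg adjustment over all genes and a threshold of 0.05. The standard error is the log2 fold change divided by the square root of F. CPM are TMM-scaled in comparisons, and by library totals in the choice of members, in shares and in comparisons with copies or overlapping genes. Alternatives were other scalings, no filter, DESeq2 1.42.0, only the groups compared, a replicate block, gene length offsets, each library left out, and 2 added after seeing the data (only members with at least 50% unique 50-base stretches, and copies summed into members). Stretches and copies came from GENCODE M21 transcripts; copies lie over 10000 bases away. The fits were tested on simulated data.

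The members and lists were chosen with earlier results of these data known. Named members are those called, those with the largest or lowest change or smallest p in a comparison, those highest or lowest in FPKM or likeness, the stalk and the paralogue pairs; the copies and overlapping genes were picked after seeing their values. The labels do not say that libraries of a group come from separate animals, so a p-value here reflects only how these samples vary, which may be technical. A few named genes are not reported here.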

Additional observations from a re-analysis of the deposited data

Results flagged for a closer look

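Rpl28 was singled out because its libraries separated in opposite directions at the 2 ages: every het library was above every WT library at 1 month (10.1, 12.4 and 11.8 against 9.55, 9.80 and 8.70 CPM) and below at 1 year (6.74 and 5.93 against 8.12 and 9.14 CPM). Of all genes, 3.51% were separated upwards at 1 month and 20.8% downwards at 1 year. The share of all genes with both was not counted, so the pattern alone does not set Rpl28 apart. The test of the difference, edgeR's interaction of age and genotype, gave -0.733 on the log2 scale with an unadjusted p of 0.00997 and an adjusted p of 1.0, so it did not pass. Ube2s overlaps Rpl28 on the opposite strand at 12.9 CPM, with log2 differences between het and WT of 0.18 at 1 month and -0.003 at 1 year.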

How the results depend on the processing

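The direction of the members' median held in every fit run for het against WT at each age and for age in each genotype, and 0 members were called for genotype or its interaction with age in any of them. With the libraries left out in turn, the medians were 0.01 to 0.29 for het against WT at 1 month, 0.05 to 0.24 at 1 year, 0.05 to 0.21 over both ages, -0.18 to 0.13 for the interaction, 0.25 to 0.58 for age in WT and 0.33 to 0.49 for age in het. The calls with age did not hold as well: leaving out libraries gave 0 to 16 in WT and 0 to 23 in het. DESeq2 called 8 in WT and 19 in het, all 12 of the het calls among the 19. Using only the groups compared gave 2 in het, no filter on low counts gave 2 in WT, copies summed gave 0 in WT, and members with at least 50% unique stretches held 7 of the het calls. A replicate block gave 0 calls in WT and 0 in het, with medians of 0.32 and 0.34. Replicate numbers share nothing in the labels. Deviations from the group mean were compared between WT and het libraries of an age by their correlation r, which was near 0 for all pairs. The r was -0.07 to 0.04 for same-numbered libraries and -0.04 to 0.08 for differently numbered ones. With 2 libraries in each group of 1 year, the values there mirror each other by construction. Over nuclear-encoded genes only, the members' mean share was 0.647% in WT and 0.703% in het at 1 month. At 1 year it was 0.872% in WT and 0.957% in het. The mean share of all counts with a library left out was 0.503 to 0.618% in WT and 0.591 to 0.648% in het at 1 month. At 1 year this share was 0.713 to 0.814% in WT and 0.812 to 0.854% in het. Counting only the members that the naming rule picks in a comparison, and not all 81, 19 values over the alternatives became called, 104 lost their call and 0 reversed while called. The cause of these changes was not tested, except that fewer libraries, genes or degrees of freedom enter some fits by construction. The lowest member count in a library was 10, so members of a few CPM have wide errors.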
